A study of Mus musculus with 32 samples.

Results

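Nnt encodes nicotinamide nucleotide transhydrogenase, an enzyme of the inner mitochondrial membrane. The gene is described here with 9 partner genes of the mitochondrial NADPH and peroxide defence system. The 10 genes were named from a list of symbols out of 24421 in the deposited count table, and all 10 were found and passed the filter on low counts in every comparison. The question was whether the lower Nnt transcript of one strain goes with a change in other NADPH sources or in peroxide defence. Nnt was chosen by its count difference between the strains in these same libraries, so its values are described here without a test. The partners were listed with earlier results of these data known, so their tests may not be independent of that choice.

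Mice of B6(CG)Tyr(c-2J)/J, an albino line with a mutant tyrosinase allele, were compared with pigmented C57BL/6 mice. The RNA came from the extraocular muscles around the eyeball (EOM), from a muscle of the lower leg, tibialis anterior (TA), and from samples labelled as oculomotor neurons (CN3) or as abducens motor neurons (CN6). There are 4 libraries per strain and tissue, 32 in all, with 18544334 to 44254021 counts each. The labels give no treatment, age, sex or C57BL/6 substrain and do not say that replicates came from separate animals, and a p-value here reflects only how these libraries vary.

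In 8 of the 16 albino libraries the tissue markers went against the label. The libraries labelled albino EOM 1, EOM 2, TA 1 and TA 2 had 2447 to 3221 CPM (counts per 1000000 counts of the library) of the neuronal gene Snap25 and at most 0.306 CPM of the muscle creatine kinase gene Ckm. The libraries labelled albino CN3 3, CN3 4, CN6 3 and CN6 4 had 5320 to 13325 CPM of Ckm and at most 12.7 CPM of Snap25. All results below are therefore given for the 24 libraries whose markers match the label, which leaves 2 albino and 4 C57BL/6 libraries per tissue. For Nnt and the partners, many results with the other 8 libraries placed by their markers, or with all libraries as labelled, stand beside them. The wider gene lists further below are given for the matching libraries, with an addition by markers for the Nrf2 list in EOM. Myh13, the myosin of eye muscle, was at 4378 to 4459 CPM in matching albino EOM and 4272 to 4980 CPM in C57BL/6 EOM, and at 23.8 to 24.9 CPM in albino TA and 23.8 to 34.8 CPM in C57BL/6 TA. The matching CN3 and CN6 libraries held general neuronal markers at 4731 to 6379 CPM in sum. The 6 motor neuron markers summed to 53.0 to 102 CPM in albino CN3 against 4.21 to 7.34 CPM in C57BL/6 CN3. In CN6 they summed to 160.5 to 169 CPM in albino libraries against 82.4 to 172 CPM in C57BL/6 libraries. The 3 pituitary markers Gh, Prl and Pomc summed to 1.40 to 1.58 CPM in albino CN3 against 7.23 to 467 CPM in C57BL/6 CN3. In CN6 their sums were 0.628 to 2.67 CPM in albino libraries against 9.26 to 344 CPM in C57BL/6 libraries. The part of this content in the brain comparisons was not tested.

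Mitochondria meet peroxide formed by respiration with a relay of reducing power. NADPH made inside the matrix, by Nnt from the proton gradient, by the isocitrate dehydrogenase Idh2 or by the malic enzyme Me3, is spent by reductases. Txnrd2 reduces the mitochondrial thioredoxin Txn2, which in turn reduces the peroxiredoxins Prdx3 and Prdx5, and Gsr recycles the glutathione that the glutathione peroxidase Gpx1 uses. Sod2, the manganese superoxide dismutase of the matrix, supplies the peroxide from superoxide. The gene Nnt lies on the minus strand at chr13:119335448-119408997 of build mm10. That assembly represents C57BL/6J, a substrain known to lack several internal exons of Nnt, and reads over sequence absent from the assembly could not be counted in either strain. The deposited table has 1 count per gene, so exons were not examined separately.

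The promoters of the 3 partners that rose in both muscles are shown with that of Prdx3, the only partner that fell in a muscle. These 4 were picked by their calls on the counts with TMM, and part of those calls did not hold under other settings, as given below. The sequences are RefSeq's on GRCm38.p6, on the strand of the gene, 250 bases before to 50 bases after the annotated start. Capitals mark GC boxes (GGGCGG, or CCGCCC on the other strand).
Gpx1, chr9:108338830-108339129, plus strand: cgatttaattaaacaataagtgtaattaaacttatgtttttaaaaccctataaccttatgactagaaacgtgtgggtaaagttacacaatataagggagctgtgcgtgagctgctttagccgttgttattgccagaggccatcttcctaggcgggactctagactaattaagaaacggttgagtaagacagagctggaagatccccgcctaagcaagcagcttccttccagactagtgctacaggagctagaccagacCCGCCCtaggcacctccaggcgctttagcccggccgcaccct
Prdx5, chr19:6910057-6910356, minus strand: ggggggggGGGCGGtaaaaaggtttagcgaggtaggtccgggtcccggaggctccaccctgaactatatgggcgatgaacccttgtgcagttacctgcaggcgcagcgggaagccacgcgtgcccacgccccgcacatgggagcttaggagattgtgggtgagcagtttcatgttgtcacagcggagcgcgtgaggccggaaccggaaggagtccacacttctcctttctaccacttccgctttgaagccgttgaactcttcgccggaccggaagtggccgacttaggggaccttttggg
Txn2, chr15:77928945-77929244, minus strand: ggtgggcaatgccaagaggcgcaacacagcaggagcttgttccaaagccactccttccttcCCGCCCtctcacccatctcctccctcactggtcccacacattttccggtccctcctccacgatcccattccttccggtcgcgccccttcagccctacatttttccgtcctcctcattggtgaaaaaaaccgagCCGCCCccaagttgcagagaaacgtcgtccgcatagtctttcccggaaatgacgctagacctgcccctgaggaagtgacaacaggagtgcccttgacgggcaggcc
Prdx3, chr19:60874489-60874788, minus strand: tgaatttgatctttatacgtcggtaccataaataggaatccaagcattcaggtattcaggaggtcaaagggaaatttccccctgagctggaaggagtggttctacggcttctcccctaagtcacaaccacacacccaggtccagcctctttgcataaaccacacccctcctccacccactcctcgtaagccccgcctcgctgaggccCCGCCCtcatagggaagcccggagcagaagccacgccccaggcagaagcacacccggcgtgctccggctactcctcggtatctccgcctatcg
Promoters were found for 8 of the 10 genes, with none used for Nnt and Gsr. The antioxidant response element TGACNNNGC, searched on both strands, is in 12.4% of the 32841 promoters of this length and in none of the 8. A GC box, in 35.7% of all promoters, is in 7 of the 8, with 4 in Sod2, 2 each in Idh2 and Txn2, 1 each in Gpx1, Prdx5, Prdx3 and Txnrd2, and 0 in Me3.

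Nnt was lower in the albino libraries in all 4 tissues, and no albino library overlapped C57BL/6 in any of them. In EOM it was at 163 and 166 CPM in albino libraries, against 498, 489, 460.4 and 478 CPM in C57BL/6 libraries. In TA it was at 19.9 and 23.5 CPM in albino libraries, against 118, 125, 117 and 144 CPM in C57BL/6 libraries. TA thus kept the smallest share of the C57BL/6 level, 17.2% of the mean, against 34.2% in EOM. In CN3 it was at 22.0 and 25.8 CPM in albino libraries, against 47.2, 51.3, 49.1 and 46.0 CPM in C57BL/6 libraries. In CN6 it was at 25.3 and 28.0 CPM in albino libraries, against 56.0, 54.2, 60.8 and 54.9 CPM in C57BL/6 libraries. In the brain samples the albino mean was 49.3% of the C57BL/6 mean in CN3 and 47.2% in CN6.

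The fitted log2 fold change of Nnt, albino over C57BL/6, was -1.53 ± 0.08 (SE) for EOM and -2.57 ± 0.10 for TA. It was -1.01 ± 0.11 for CN3 and -1.09 ± 0.09 for CN6. The difference between the fold changes of EOM and TA was 1.03 ± 0.13. These values chose the gene and carry no test. In every tissue Nnt transcripts were still counted in the albino libraries, at no less than 19.9 CPM. The 8 libraries placed by markers had values like those of their marker group. The libraries labelled albino CN3 3 and CN3 4, which are muscle-like with Myh13, had 173 and 142 CPM, and those labelled albino CN6 3 and CN6 4 had 20.5 and 20.0 CPM. The brain-like libraries labelled albino EOM 1 and EOM 2 had 22.4 and 22.9 CPM, and those labelled albino TA 1 and TA 2 had 30.9 and 26.5 CPM. With these libraries the albino means were 161 ± 13.6 CPM for EOM, 21.0 ± 1.67 CPM for TA, 23.3 ± 1.71 CPM for CN3 and 27.7 ± 2.43 CPM for CN6 (SD, n = 4 each). With all libraries as labelled, the fitted value in CN3 turned to 1.33, since that group then mixes muscle and brain.

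**Figure D1:**
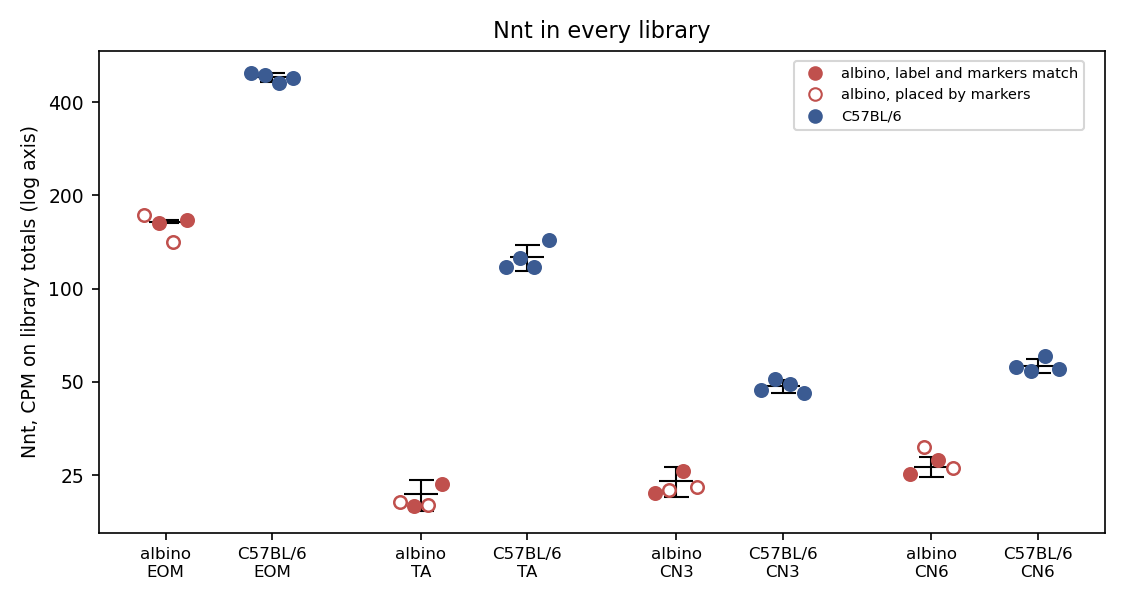
CPM of Nnt on a log axis in each of the 32 libraries, by tissue, with bars for the mean and SD of the libraries whose markers match the label; open circles are albino libraries placed by markers. The albino libraries lie below every C57BL/6 library of the same tissue, at 142 to 173 CPM in EOM and 19.9 to 30.9 CPM in the other tissues.

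The level of Nnt differed between tissues within each strain. In albino libraries EOM was highest at 164.5 ± 2.26 CPM, followed by CN6 at 26.7 ± 1.94 CPM, CN3 at 23.9 ± 2.68 CPM and TA at 21.7 ± 2.50 CPM (SD, n = 2 each). Here CN6 and CN3 overlapped, as did CN3 and TA. In C57BL/6 the means were 481 ± 15.9 CPM in EOM, 126 ± 12.3 CPM in TA, 56.4 ± 2.97 CPM in CN6 and 48.4 ± 2.31 CPM in CN3 (SD, n = 4 each), and no neighbours in this order overlapped. The albino order depends on the scaling. After edgeR's TMM factors, which were 0.587 to 0.619 for TA and 1.23 to 1.31 for the brain libraries, albino TA was at 36.3 ± 3.44 CPM, above CN6 at 20.9 ± 2.15 CPM and CN3 at 18.5 ± 2.19 CPM.

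The partners were tested with edgeR's quasi-likelihood test, with p-values adjusted over all genes tested by the Benjamini-Hochberg method and called under 0.05. In EOM, 5 of the 9 partners rose in the albino strain and 0 fell. They were Gpx1, Prdx5, Txn2, Txnrd2 and Idh2, so that they cover a peroxidase of the glutathione branch, 3 steps of the thioredoxin branch and an NADPH source. Of all 15397 genes tested in EOM, 32% were called in either direction with 14.5% higher and 17.6% lower. The 5 called partners are 55.6% of the 9. The median log2 fold change of the 9 partners was 0.42, beside 0.01 for all genes tested. Without albino EOM 3 the number of genes called was 2738 in place of 4934.

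Gpx1, the glutathione peroxidase of cytosol and mitochondria, had 157 and 153 CPM in albino EOM, against 104, 94.6, 86.7 and 98.1 CPM in C57BL/6 EOM. Its log2 fold change was 0.71 ± 0.09 (SE, adjusted p = 0.00127). Prdx5, a peroxiredoxin found in mitochondria, peroxisomes and cytosol, had 363 and 340.0 CPM in albino EOM, against 227, 216, 207 and 238 CPM in C57BL/6 EOM. For these genes the groups lay well apart, at 1.62 and 1.58 times the C57BL/6 mean. The log2 fold change of Prdx5 was 0.68 ± 0.08 (adjusted p = 0.00117). Txn2, the thioredoxin of the matrix, had 442 and 403 CPM in albino EOM, against 308, 320.4, 279 and 306 CPM in C57BL/6 EOM, a log2 fold change of 0.49 ± 0.08 (adjusted p = 0.00325). Txnrd2 encodes the reductase that keeps Txn2 active. It had 26.8 and 24.2 CPM in albino EOM, against 17.8, 17.6, 17.9 and 21.0 CPM in C57BL/6 EOM, a log2 fold change of 0.47 ± 0.12 (adjusted p = 0.0148). Idh2, the NADP-dependent isocitrate dehydrogenase of the matrix, had 574.5 and 577 CPM in albino EOM, against 457, 455.5, 390 and 434 CPM in C57BL/6 EOM, a log2 fold change of 0.42 ± 0.09 (adjusted p = 0.00923). Txnrd2 lost its call with the replicate number as a block (0.41, adjusted p = 0.13), without albino EOM 3 (adjusted p = 0.108) and without albino EOM 4 (adjusted p = 0.0546). Idh2 lost its call without albino EOM 4 (adjusted p = 0.0583). In these fits with 1 albino library left, that library is assumed to vary like the others. The calls of Txnrd2, Idh2 and Gpx1 also ended with offsets for GC content and length, described below. In EOM the strains did not overlap in CPM for 6 of the 9 partners, these 5 and Sod2, which lay lower in albino EOM, and the same held for 51.4% of all genes tested. With the 2 muscle-like libraries labelled albino CN3 added, the same 6 did not overlap, beside 38.7% of all genes, and Gpx1 was at 147 and 135 CPM and Prdx5 at 347 and 312 CPM in those libraries.

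The other 4 partners did not pass the test in EOM. Me3, the mitochondrial malic enzyme, had a log2 fold change of 0.21 ± 0.09 (adjusted p = 0.112), and Gsr, the glutathione reductase, 0.06 ± 0.09. With upper quartile factors Me3 was called (0.27, adjusted p = 0.0459), so that 6 of the 9 partners were higher. Of all 15397 genes, 2881 were then called higher and 2390 lower. Prdx3, the peroxiredoxin confined to mitochondria, was at 282 and 290 CPM in albino EOM and at 277 to 308 CPM in C57BL/6 EOM, with a log2 fold change of -0.05 ± 0.08. Sod2 was at 396 and 413 CPM in albino EOM and at 416 to 472 CPM in C57BL/6 EOM, with a log2 fold change of -0.11 ± 0.08.

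In TA, 3 of the 9 partners rose and 1 fell, where 31.1% of the 13295 genes tested were called, 14.7% of them higher and 16.4% lower. Gpx1 had 59.6 and 64.9 CPM in albino TA, against 37.3, 35.8, 35.1 and 34.0 CPM in C57BL/6 TA, a log2 fold change of 0.78 ± 0.07 (adjusted p = 1.41e-05). Prdx5 had 178 and 188 CPM in albino TA, against 139, 145, 126 and 131 CPM in C57BL/6 TA, a log2 fold change of 0.41 ± 0.07 (adjusted p = 0.000585). Both genes thus rose in each muscle. Txn2 had 280.1 and 303 CPM in albino TA, against 265, 257, 233.5 and 227 CPM in C57BL/6 TA, a log2 fold change of 0.22 ± 0.07 (adjusted p = 0.0367). Prdx3 had 214 and 234 CPM in albino TA, against 260, 257, 247 and 245 CPM in C57BL/6 TA, and its log2 fold change was -0.20 ± 0.06 (adjusted p = 0.0252). The fall of Prdx3 did not pass under several settings, among them the replicate number as a block (-0.18, adjusted p = 0.136), TMM left out (-0.17, adjusted p = 0.0572) and albino TA 3 (-0.15, adjusted p = 0.222), C57BL/6 TA 1 (adjusted p = 0.0516) or C57BL/6 TA 2 (adjusted p = 0.0586) left out. Txn2 lost its call without albino TA 3 (adjusted p = 0.0684), albino TA 4 (0.191) or C57BL/6 TA 4 (0.0804). Idh2 (0.05 ± 0.10), Me3 (0.11 ± 0.07), Txnrd2 (-0.02 ± 0.08), Gsr (0.06 ± 0.10) and Sod2 (-0.12 ± 0.06) did not pass the test in TA. In TA the strains did not overlap for 5 of the 9 partners, the 4 called and Sod2, beside 49.5% of all genes. With the muscle-like libraries labelled albino CN6 added it was 3 of 9, Gpx1, Prdx5 and Prdx3, beside 29.8% of all genes. The median of the 9 partners was 0.06, beside 0.00 for all genes tested. Without albino TA 3 the number of genes called was 2484 in place of 4131.

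With the muscle-like libraries added by their markers, 4 albino against 4 C57BL/6, the same 5 partners were called in EOM and the same 4 in TA, where 38.9% and 33.7% of all genes were called. In EOM the log2 fold changes were then 0.63 for Gpx1, 0.62 for Prdx5, 0.49 for Txn2, 0.43 for Txnrd2 and 0.38 for Idh2. In TA they were 0.65 for Gpx1, 0.44 for Prdx5, 0.26 for Txn2 and -0.20 for Prdx3. With all libraries as labelled, 0 of the 9 partners were called in either muscle, and 1 and 18 genes were called among all genes in EOM and TA.

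**Figure D2:**
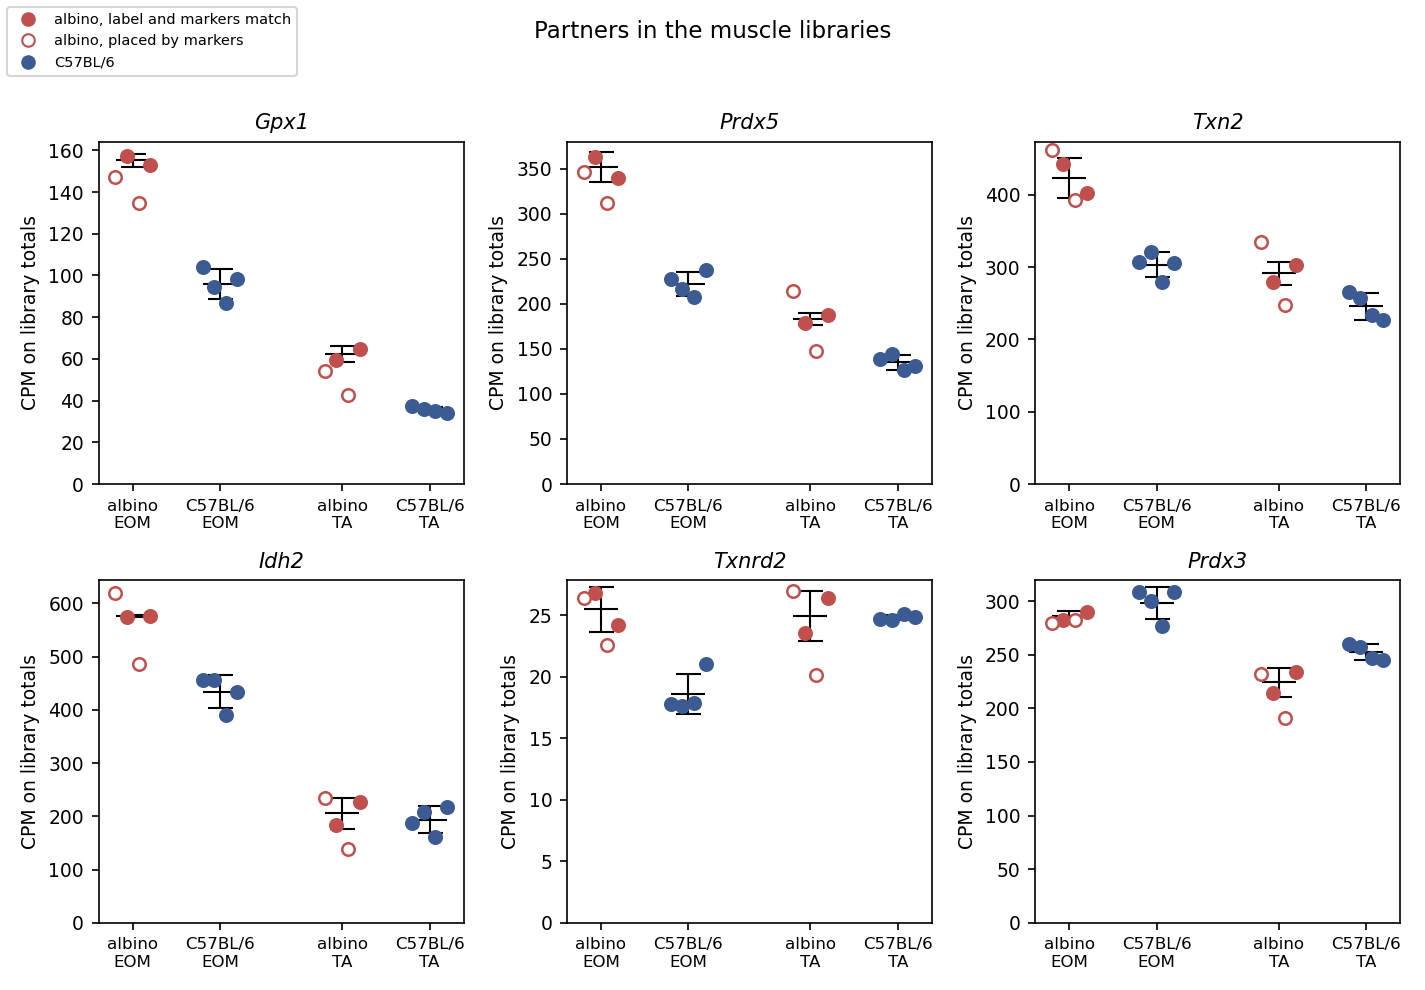
CPM from 0 upward in each muscle library for Gpx1, Prdx5, Txn2, Idh2, Txnrd2 and Prdx3, with bars for the mean and SD of the libraries whose markers match the label; open circles are albino libraries placed by markers. Gpx1 and Prdx5 in albino libraries lie above C57BL/6 in both muscles, whereas Idh2 and Txnrd2 do so in EOM, and Prdx3 in albino TA lies below C57BL/6 TA.

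The genotype differences of all genes in muscle followed base composition and length. In EOM the median log2 fold change over 4 equal groups of genes by exonic GC content, from low to high, was -0.39, -0.11, 0.11 and 0.29, and in TA it was -0.25, -0.05, 0.08 and 0.19. By exon length, from short to long, the medians in EOM ran from 0.28 to -0.29. Idh2, Prdx5, Txnrd2 and Gpx1 are in the group with the highest GC content, and Sod2 is in that with the lowest. When the counts were refitted with offsets for GC content and length, 4 of the 9 partners were called higher in EOM, and the set was a different one. Calls among all genes fell as well, to 1161 higher and 1253 lower of 14841, from 2229 and 2705 of 15397. Prdx5 (0.28 ± 0.08, adjusted p = 0.0407) and Txn2 (0.34 ± 0.08, adjusted p = 0.021) kept the call, while Gpx1 (0.21 ± 0.08, adjusted p = 0.119), Txnrd2 (0.28 ± 0.12, adjusted p = 0.143) and Idh2 (0.09 ± 0.08, adjusted p = 0.493) lost it. Me3 (0.59 ± 0.11, adjusted p = 0.0104) and Sod2 (0.37 ± 0.08, adjusted p = 0.0204) gained one, Sod2 with its sign turned. In TA, Gpx1 stayed higher (0.49 ± 0.07, adjusted p = 0.000502) and Prdx3 lower (-0.20 ± 0.06, adjusted p = 0.0237), and Me3 was called higher (0.27 ± 0.08, adjusted p = 0.0274). Prdx5 (0.16 ± 0.06, adjusted p = 0.0705) and Txn2 (0.10 ± 0.07, adjusted p = 0.301) lost their calls in TA. Among all genes in TA, 1477 were called higher and 1648 lower of 12815, from 1950 and 2181 of 13295 without the offsets. Of the partners, Prdx5 and Txn2 in EOM and Gpx1 and Prdx3 in TA were thus called with and without these offsets. Nnt itself moved little, to -1.43 ± 0.07 in EOM.

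**Figure D3:**
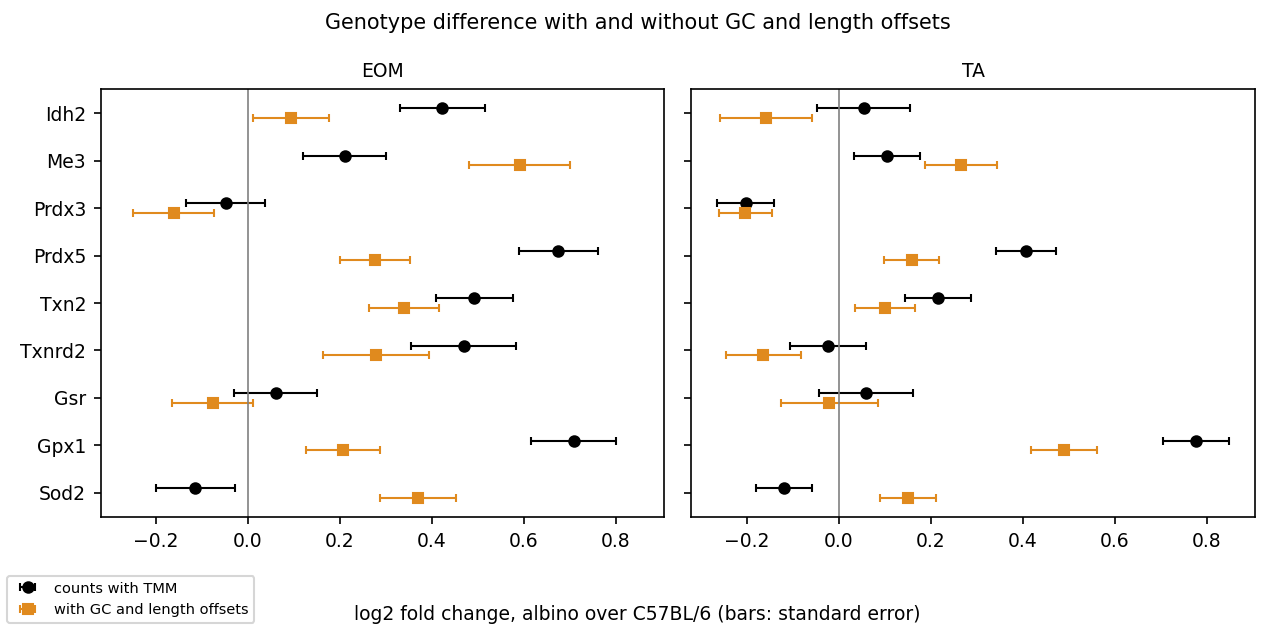
Log2 fold change of each partner, albino over C57BL/6, with standard error bars, in EOM and TA, from the counts with TMM (black circles) and with offsets for GC content and exon length (orange squares). Under the offsets Gpx1 in EOM is at 0.21 and Idh2 at 0.09, whereas Me3 is at 0.59 and Sod2 at 0.37.

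Other transcripts moved with the strain in the same libraries. In TA, 6 of 6 macrophage markers, 5 of 5 fibroblast markers and 3 of 5 endothelial markers rose. The macrophage markers summed to 129 to 159 CPM in albino TA against 32.1 to 38.2 CPM in C57BL/6 TA, and the fibroblast markers to 710.3 to 775 CPM against 288 to 385 CPM. The endothelial markers summed to 310.6 to 314 CPM in albino TA against 214 to 256 CPM in C57BL/6 TA. Of the astrocyte markers, 2 of 4 were called higher in TA, with sums of 42.9 to 64.2 CPM in albino TA against 50.2 to 69.1 CPM in C57BL/6 TA. In EOM, 6 of 10 fast fibre markers rose and 1 fell, with sums of 76090 to 80690 CPM in albino EOM against 69360 to 77670 CPM in C57BL/6 EOM. Of the 2 pituitary markers tested in EOM, 2 rose, with sums of 1.54 to 16.7 CPM in albino EOM against at most 0.409 CPM in C57BL/6 EOM, where Gh and Prl were at 0. In EOM, 2 of 6 macrophage and 3 of 5 endothelial markers rose, while 3 of 5 fibroblast markers fell and 1 rose. The endothelial markers summed to 471 to 474.5 CPM in albino EOM against 355 to 438 CPM in C57BL/6 EOM. The macrophage markers summed to 582.5 to 684 CPM in albino EOM against 471 to 582 CPM in C57BL/6 EOM, and the fibroblast markers to 2468 to 2686 CPM against 3437 to 3576 CPM. None of the macrophage, fibroblast, endothelial, astrocyte and fast fibre markers was at 0 throughout a muscle group. The part of these transcripts in the changes of Gpx1, Prdx5 and the other partners was not tested. In such bulk samples, fewer cells of a type and less RNA per cell cannot be told apart. Reads of overlapping genes on opposite strands may be counted together where counting ignored strand, which the sources used here do not state. Prdx5 shares 409 exon bases with Trmt112.

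In CN3 and CN6, 0 of the 9 partners were called. Calls were rare there for all genes, 13 of 16171 (0.0804%) in CN3 and 4 of 16268 (0.0246%) in CN6. Those in CN3 included 4 of the 6 motor neuron markers, higher in albino CN3, and 0 of the 3 pituitary markers. DESeq2 called 101 and 106 genes in CN3 and CN6 and no partner, and at an unadjusted edgeR p under 0.05 there were 1344 and 1523 genes, again with 0 partners. Single libraries decided these counts. In CN6 it was 950 without albino CN6 2 and 9 without albino CN6 1, and in CN3 it was 2 without albino CN3 2, 4 without C57BL/6 CN3 4 and 7 without C57BL/6 CN3 1 or C57BL/6 CN3 3, with no partner called in any of these fits. The log2 fold changes of the partners lay between -0.18 (Txnrd2, SE 0.10) and 0.19 (Sod2, SE 0.10) in CN3, and between -0.16 (Gsr, SE 0.08) and 0.09 (Txn2, SE 0.06) in CN6. Gpx1 was at 53.6 and 45.4 CPM in albino CN3, against 50.1, 49.3, 56.3 and 54.5 CPM in C57BL/6 CN3. Prdx5 was at 160 and 172 CPM in albino CN3 and at 165 to 193 CPM in C57BL/6 CN3. Both genes, which rose in the muscles, overlapped between the strains in the brain samples. In CN3 the strains did not overlap for 3 of the 9 partners, beside 20.2% of all genes. Sod2 lay above with 182 and 187 CPM in albino CN3 against 142 to 175 CPM in C57BL/6 CN3 (adjusted p = 0.635), and Prdx3 and Txnrd2 lay below. In CN6 it was 2 of 9, beside 16.7% of all genes, with Txn2 above and Gsr below. With the brain-like libraries added by markers, 0 of the 9 partners were called in either brain sample, where 0.283% and 0.12% of all genes were. The strains then did not overlap for 2 of 9 in CN3, Sod2 above and Prdx3 below, and for 0 of 9 in CN6, beside 10.3% and 6.33% of all genes.

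**Figure D4:**
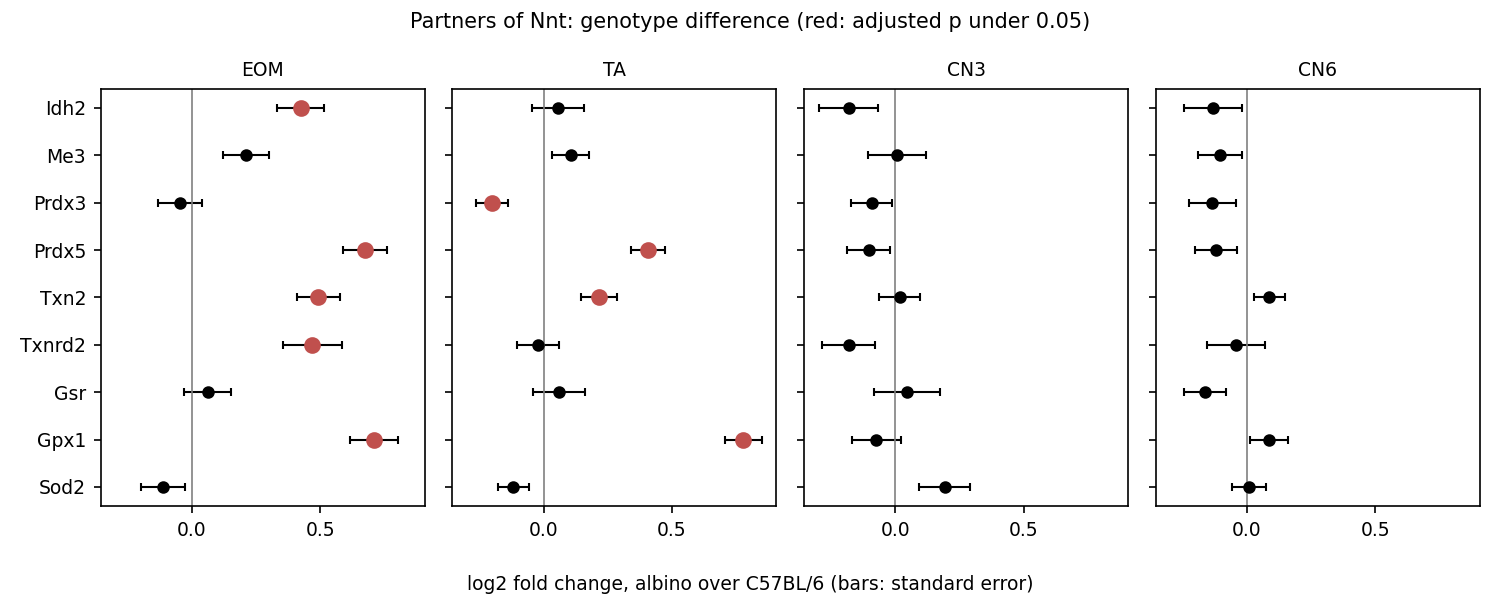
Log2 fold change of the 9 partners, albino over C57BL/6, with standard error bars, in the 4 tissues; red points passed an adjusted p of 0.05. In EOM 5 points are red and positive, in TA 3 are positive and Prdx3 is negative, and in CN3 and CN6 there are 0 red points, all values lying between -0.18 and 0.19.

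Whether a partner's change differed between the tissues was tested with an interaction term. Between EOM and TA, 0 of the 9 partners passed, where 7.73% of 15670 genes did. At an unadjusted p under 0.05 there were 4 partners and 3760 genes, and DESeq2 called 1 partner and 1896 genes. With albino EOM 3, TA 3 or TA 4 left out, 591, 605 or 593 genes passed in place of 1211. Txnrd2 was nearest, with a difference in log2 fold change of 0.49 ± 0.14 between EOM and TA (adjusted p = 0.0521). It passed with DESeq2 (0.45, adjusted p = 0.038), with upper quartile factors (0.52, adjusted p = 0.0249), with the libraries placed by markers (0.50, adjusted p = 0.0188) and without C57BL/6 EOM 4 (0.57, adjusted p = 0.013). Idh2, called in EOM and not in TA, had a difference of 0.36 ± 0.16 (adjusted p = 0.192), and Gpx1 one of -0.07 ± 0.12 (adjusted p = 0.773). Between CN3 and CN6, 0 of the 9 partners passed, where 2 of 16604 genes did (0.012%). DESeq2 called 11 genes there and no partner, and the unadjusted p was under 0.05 for 803 genes and 0 partners. Leaving out single libraries gave 0 to 20 genes called there, the highest count without albino CN6 2.

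Genes of other routes to NADPH, in cytosol and mitochondria, moved in both directions in muscle. Of 16 such genes, 2 rose and 4 fell in EOM, so that 37.5% were called beside 32% of all genes, with a median log2 fold change of -0.13. In TA 2 rose and 5 fell, 43.8% beside 31.1% of all genes, with a median of -0.08. All genes tested had medians of 0.01 in EOM and 0.00 in TA. With the GC and length offsets, 1 rose and 3 fell in EOM, where 1161 of 14841 genes rose and 1253 fell. In TA, 1 rose and 5 fell with the offsets, where 1477 of 12815 genes rose and 1648 fell. The fold changes of single genes in this and the next lists are without the offsets. Nadk2, the mitochondrial NAD kinase that makes NADP, fell in both muscles. It averaged 30.9 ± 0.27 CPM in albino EOM and 51.2 ± 3.68 CPM in C57BL/6 EOM, a log2 fold change of -0.71 (adjusted p = 0.00139), and it changed by -0.42 in TA (adjusted p = 0.00669). In EOM the folate enzyme Mthfd1l had a log2 fold change of -1.14 (adjusted p = 0.00665), whereas Mthfd2, a mitochondrial folate dehydrogenase, rose by 0.69 (adjusted p = 0.00691) and Shmt2, the serine hydroxymethyltransferase of mitochondria, rose by 0.37 (adjusted p = 0.0214). In TA the genes with the smallest p all fell, namely the cytosolic isocitrate dehydrogenase Idh1 (-0.62, adjusted p = 0.000322), Glud1, the glutamate dehydrogenase (-0.27, adjusted p = 0.00454), and the cytosolic malic enzyme Me1 (-0.31, adjusted p = 0.00943).

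Of 22 other genes of peroxide, thiol and superoxide defence, 8 rose and 2 fell in EOM (median 0.15), so that 45.5% were called beside 32% of all genes. In TA 5 rose and 1 fell (median 0.09), and 27.3% were called beside 31.1% of all genes. Gpx4, which reduces lipid peroxides, averaged 527.5 ± 25.4 CPM in albino EOM and 297 ± 17.6 CPM in C57BL/6 EOM (SD, n = 2 and n = 4), a log2 fold change of 0.84 (adjusted p = 0.000561), and rose by 0.33 in TA (adjusted p = 0.00156). The cytosolic superoxide dismutase Sod1 rose by 0.57 in EOM (adjusted p = 0.00109) and by 0.32 in TA (adjusted p = 0.00207). Glrx5, a mitochondrial glutaredoxin of iron-sulfur assembly, rose by 0.57 in EOM, and the peroxiredoxin Prdx2 by 0.43. In TA the secreted peroxidase Gpx3 rose by 0.72 (adjusted p = 0.000746), and Glrx2, another mitochondrial glutaredoxin, fell by 0.48 (adjusted p = 0.00088). In the brain samples 0 genes of these lists were called.

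Nfe2l2, which encodes the transcription factor Nrf2 that drives many antioxidant genes, fell in both muscles. It averaged 72.1 ± 8.07 CPM in albino EOM and 114 ± 5.41 CPM in C57BL/6 EOM, a log2 fold change of -0.65 (adjusted p = 0.00199), and changed by -0.37 in TA (adjusted p = 0.0167). Of the 13 genes of Nrf2 and its targets, 4 of which also stand in the defence list, 1 rose and 3 fell in EOM (median 0.11), and the 30.8% called is near the 32% of all genes. Gclm and Gclc, the subunits of the enzyme that starts glutathione synthesis, fell there by 0.47 (adjusted p = 0.0202) and 0.44 (adjusted p = 0.0431). The sulfiredoxin gene Srxn1 rose by 0.34 (adjusted p = 0.0422). With the GC and length offsets neither Gclm nor Gclc was called lower in EOM. Of the 13 genes, 1 was still higher and 3 lower there with the offsets, beside 1161 of 14841 genes higher and 1253 lower. In TA with the offsets, 1 of 12 was higher and 4 were lower, beside 1477 of 12815 genes higher and 1648 lower. With the muscle-like libraries added by their markers, 0 of the 13 rose in EOM and 4 fell (median -0.02), where 38.9% of all genes were called. The rise of Srxn1 thus lost its call there. In TA 1 of 12 tested rose and 3 fell, and the 33.3% called is near the 31.1% of all genes. The called genes there included Hmox1, the inducible heme oxygenase, at 0.72 (adjusted p = 0.00804), the glutathione transferase Gstm1 at -0.41 (adjusted p = 0.000658) and the epoxide hydrolase Ephx1 at -0.53 (adjusted p = 0.00181).

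Genes that mark mitochondrial content moved in EOM in the same direction as the called partners. Of 17 such genes 8 rose and 0 fell in EOM (median 0.20), and 5 rose and 1 fell in TA (median 0.01). In EOM the cytochrome oxidase subunit Cox4i1 rose by 0.52 (adjusted p = 0.00299), the complex I subunit Ndufv1 by 0.45 (adjusted p = 0.00514), the import receptor Tomm20 by 0.32 (adjusted p = 0.00821) and the ADP/ATP carrier Slc25a4 by 0.36 (adjusted p = 0.0088). Of 16 genes of the citric acid cycle, 4 rose and 1 fell in EOM, and 2 rose and 2 fell in TA. The NAD-dependent isocitrate dehydrogenase subunit Idh3b rose by 0.41 in EOM (adjusted p = 0.00377) and by 0.23 in TA (adjusted p = 0.00936), and the lipoamide dehydrogenase Dld fell by 0.43 (adjusted p = 0.00566) and 0.38 (adjusted p = 0.000921). Of the mitochondrial content genes 47.1% were called in EOM and 35.3% in TA, and of the citric acid cycle genes 31.2% and 25%, beside 32% and 31.1% of all genes in EOM and TA. With the GC and length offsets, 7 of 17 mitochondrial content genes and 8 of 22 defence genes were higher in EOM. Of either list 0 were lower there, beside 1161 of 14841 genes higher and 1253 lower. In TA, 4 of the 22 defence genes were higher and 1 lower with the offsets, beside 1477 of 12815 genes higher and 1648 lower.

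Within C57BL/6 the 9 partners were tested between tissues, and Nnt, whose C57BL/6 levels entered its choice, is given beside them without a test. All 9 partners were higher in muscle than in brain after TMM scaling, where 88.8% of 16670 genes were called and 41.4% were higher. On the deposited library totals without TMM, 7 were higher and 2 were lower, with Prdx5 turning to -0.16 (adjusted p = 0.00224) and Gsr to -0.38 (adjusted p = 2.39e-05). That change of scaling moved the median of all genes to -0.81, beside -0.13 with TMM. The widest gaps with TMM were those of the NADPH sources Idh2 (3.53 ± 0.08), Nnt (2.93 ± 0.05) and Me3 (2.19 ± 0.05), and of the thioredoxin branch members Txn2 (2.26 ± 0.05) and Prdx3 (2.19 ± 0.04). Sod2 followed with 1.83 ± 0.05, Txnrd2 with 1.22 ± 0.06, Gpx1 with 0.90 ± 0.05, Prdx5 with 0.53 ± 0.05 and Gsr with 0.31 ± 0.06. Idh2 was at 434 ± 31.2 CPM in EOM and 194 ± 25.2 CPM in TA, against 44.9 ± 4.56 CPM in CN3 and 36.7 ± 4.67 CPM in CN6 (SD, n = 4 each). Gsr was at 23.4 ± 1.28 CPM in EOM and 19.8 ± 1.96 CPM in TA, against 25.9 ± 3.04 CPM in CN3 and 30.4 ± 1.80 CPM in CN6. Idh2 and Gsr thus stood at opposite ends of the range, and Gsr had no call in muscle over brain with the GC and length offsets (0.05, adjusted p = 0.45). The 17 mitochondrial content genes had a median of 2.14 in the same comparison, beside 1.83 for the 9 partners.

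Between the C57BL/6 muscles, 2 of the 9 partners were higher in EOM than in TA and 6 were lower with TMM, where 77.2% of 14408 genes were called, 42.3% higher and 35.0% lower. Gpx1 (0.76 ± 0.07, adjusted p = 7.92e-07) and Idh2 (0.49 ± 0.09, adjusted p = 0.000273) were higher in EOM. Me3 (-1.16 ± 0.07, adjusted p = 1.23e-08) and Txnrd2 (-1.09 ± 0.08, adjusted p = 1.37e-07) were lower in EOM. Nnt was at 1.26 ± 0.07, untested. On library totals without TMM these kept their direction, with Gpx1 at 1.43, Idh2 at 1.17, Me3 at -0.49, Txnrd2 at -0.42 and Nnt at 1.93. Prdx3, Txn2, Gsr and Sod2 were lower in EOM with TMM (-0.43, -0.37, -0.43 and -0.23) and higher on library totals (0.24, 0.31, 0.24 and 0.44), and Prdx5 was not called with TMM (0.05) and higher on library totals (0.72). The median of all genes was 0.10 with TMM and 0.78 on library totals. Of the NADPH sources of the matrix, Idh2 was thus higher and Me3 lower in EOM under both scalings. Of the 17 mitochondrial content genes 17 were lower in EOM with TMM, and 11 were higher and 1 lower on library totals.

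**Figure D5:**
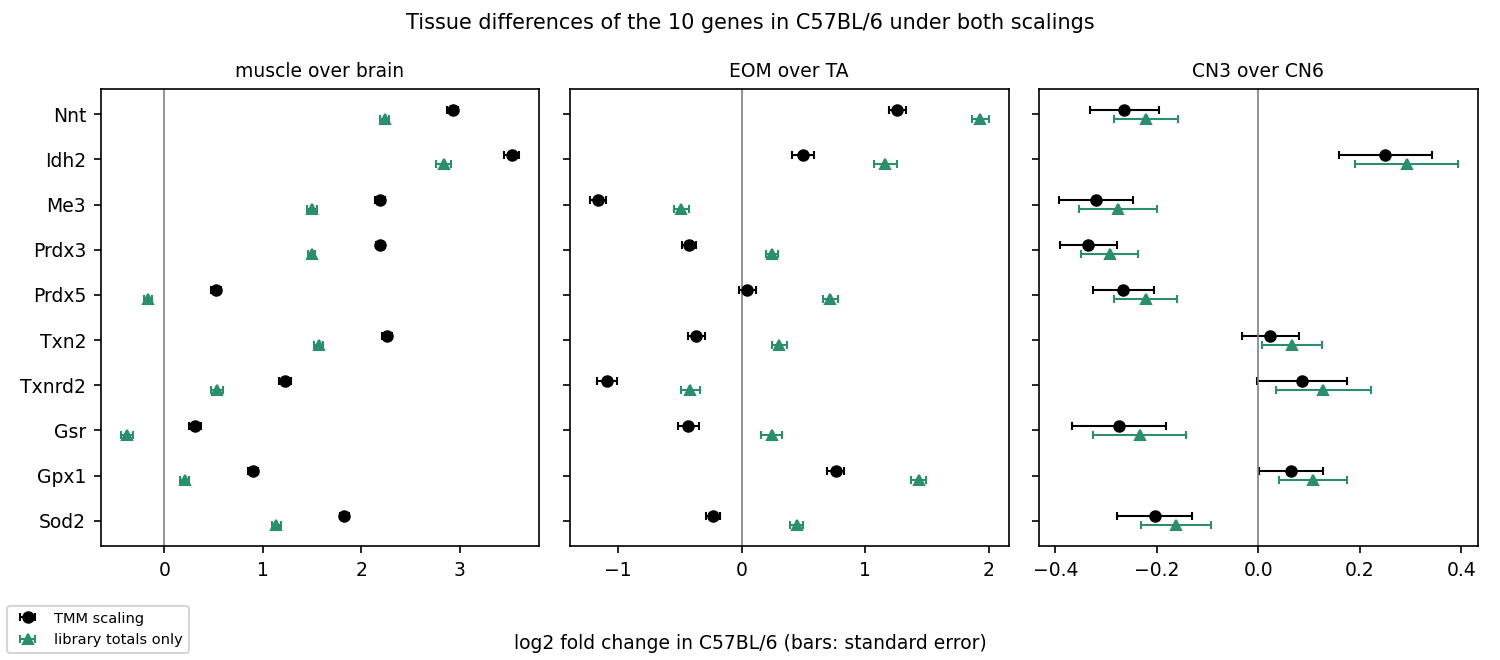
Log2 fold changes of the 10 genes between tissues of C57BL/6, with standard error bars, after TMM scaling (black circles) and on library totals only (green triangles). Nnt, Idh2 and Gpx1 lie right of 0 and Me3 and Txnrd2 left of 0 in EOM over TA under both scalings, whereas Prdx3, Txn2, Gsr and Sod2 change side.

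Between the C57BL/6 brain samples, 3 of the 9 partners were lower in CN3 than in CN6 and 0 were higher, where 26.6% of 16004 genes were called and 13.5% were lower. They were Me3 (-0.32 ± 0.07, adjusted p = 0.00839), Prdx3 (-0.33 ± 0.06, adjusted p = 0.00171) and Prdx5 (-0.27 ± 0.06, adjusted p = 0.00845). Nnt was at -0.26 ± 0.07, untested. The count was 6 without C57BL/6 CN3 2, where Idh2 was higher (0.31, adjusted p = 0.0389) and Gsr (-0.34, adjusted p = 0.00917) and Sod2 (-0.23, adjusted p = 0.0323) were lower. Leaving out single libraries gave 2826 to 4724 genes called in this comparison, in place of 4252. Me3 was at 31.4 to 38.7 CPM in CN3 and 41.2 to 43.3 CPM in CN6, and Prdx3 at 84.5 to 91.7 CPM in CN3 and 101 to 112 CPM in CN6. Of the 17 mitochondrial content genes, 12 were lower in CN3 and 0 were higher.

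Across all 32 libraries the genes whose log2 CPM was most like that of Nnt were Osbpl9 and Osbp, which encode oxysterol-binding proteins, Fibin, Uap1, an enzyme of UDP-N-acetylglucosamine synthesis, and Adam17, a membrane protease. Pearson's r with Nnt was 0.92 for Osbpl9, Fibin and Uap1 and 0.91 for Osbp and Adam17, over points that share tissue, strain and scaling, and it is given as a description. Osbpl9 averaged 150.1 CPM in albino EOM and 199 CPM in C57BL/6 EOM, and Fibin 16.2 CPM in albino EOM and 31.0 CPM in C57BL/6 EOM. Both were thus highest in C57BL/6 EOM, as Nnt was, with narrower gaps between the strains than Nnt had. None of the 9 partners came near this likeness. Among 13964 genes, Sod2 ranked 856 (r = 0.72), Idh2 1007 (0.71) and Prdx3 1035 (0.71), while Prdx5 (0.38), Txnrd2 (0.37) and Gsr (-0.25) ranked 4146, 4166 and 8510.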

How the data were processed

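RNA-seq libraries of EOM, TA, CN3 and CN6 from both strains were analysed from the raw read counts per gene symbol that the authors deposited, with no normalization. Reads were trimmed and aligned to mm10 by the authors, whose tools were HISAT2 2.1.0, Trimmomatic 0.33, FastQC, featureCounts and edgeR per the submitters' processing notes, without a strand setting. RNA was isolated with RNeasy kits for fibrous or lipid tissue, per the labels' protocols. Library totals were 18544334 to 44254021 counts. CPM values here are counts per 1000000 of these totals.

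Counts were fitted in R 4.3.3 with edgeR 4.0.16 (filterByExpr, TMM, quasi-likelihood F test, Benjamini-Hochberg adjustment over all genes tested, called under 0.05). Each genotype comparison used its own tissue. Interaction terms used both muscles or both brain samples. Fold changes carry a standard error from the F statistic. The fits were also run on simulated counts with known changes. How many changes as small as those of the partners were recovered is not given here.

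Each library was placed as muscle or brain by its higher mean log2 CPM (prior count 2), of 10 fast fibre or 6 neuronal markers. Libraries whose markers went against the label were left out of the main comparisons. Their tissue within muscle or brain came from a preset grouping and was not computed here. Myh13 was at 3742 and 3765 CPM in those placed as EOM and 19.5 and 94.0 CPM in TA. The motor neuron gene Chat was at 9.05 and 6.86 CPM in those placed as CN3 and 18.0 and 24.3 CPM in CN6. Alternatives were DESeq2 1.42.0, upper quartile factors, no filter, a replicate block, offsets for GC content and exon length (natural splines fitted to each library's deviation from the gene mean), all libraries as labelled, albino libraries grouped by markers, all tissues in 1 fit, each library left out, and, chosen after seeing the data, library totals without TMM. GENCODE positions on the same build were found for 23350 symbols (95.6%). A further 27 symbols look like dates (at most 0.309% of the counts of a library).

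Nnt's levels chose the gene, so it is described without a test in every comparison, and all counts of calls are over the 9 partners. The members and gene lists were chosen with earlier results of these data known. Named genes are the 10 members, up to 4 genes of each list with the smallest adjusted p in a comparison, and the 5 genes most correlated with Nnt.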

Additional observations from a re-analysis of the deposited data

Results flagged for a closer look

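In 2 of the 40 groups of 4 libraries examined (each gene, C57BL/6 tissues), 1 library stood far from the other 3, and chance gives about 1 in 20. Me3 was at 141 CPM in C57BL/6 TA 1, where the other 3 C57BL/6 TA libraries had 122 to 124 CPM. Txnrd2 was at 21.0 CPM in C57BL/6 EOM 4, where the other 3 C57BL/6 EOM libraries had 17.6 to 17.9 CPM. Without C57BL/6 EOM 4 the difference of the Txnrd2 fold change between EOM and TA passed the test (0.57, adjusted p = 0.013), and the cause was not tested.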

How the results depend on the processing

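With all libraries as labelled, 0 of 9 partners were called in EOM and 0 in TA, Idh2 (-0.46) and Txn2 (-0.24) in EOM and Txn2 in TA (-0.54) changed sign, and Nnt in CN3 turned to 1.33. That setting mixes muscle and brain within a group. In EOM, Sod2 turned to 0.37 with the GC and length offsets. The interaction of EOM and TA gave 1 partner, Txnrd2, with upper quartile factors, with DESeq2 and with libraries grouped by markers. Among all genes, DESeq2 called 1896 there and the grouping by markers 1988, in place of 1211. Upper quartile factors called 637 genes higher and 876 lower. CN3 against CN6 in C57BL/6 gave 6 of 9 partners with DESeq2 in place of 3, where 4907 of 16004 genes were called in place of 4252. On library totals without TMM, Prdx3 (0.24), Txn2 (0.31), Gsr (0.24) and Sod2 (0.44) turned in EOM against TA, and Prdx5 (-0.16) and Gsr (-0.38) in muscle against brain. The cause was not tested.

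Leaving out single libraries gave 3 to 5 partners called in EOM, 2 to 4 in TA, 0 in CN3, CN6 and their interaction, 0 to 1 in that of EOM and TA, 3 to 6 in CN3 against CN6 in C57BL/6, 8 in EOM against TA and 9 in muscle against brain.

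Same-numbered libraries did not deviate together throughout, so the numbers were not taken as pairs. Between the strains, which cannot share an animal, the correlations ran from -0.19 to 0.25. Between tissues of C57BL/6 they ran from -0.18 to 0.14. Of 8 C57BL/6 libraries, 3 correlated best with their own number in EOM against TA and 3 in CN3 against CN6. With the replicate number as a block, 4 partners were called in EOM (Txnrd2 lost, adjusted p = 0.13), 3 in TA (Prdx3 lost, adjusted p = 0.136), 0 in each brain sample and in both interactions, and 8, 4 and 9 of the 9 partners in EOM against TA, CN3 against CN6 and muscle against brain, and the genes called in EOM numbered 2641 in place of 4934. Depth did not limit the members, whose lowest count in a library was 327. Between uncalled values, signs also changed, as in 20 with all libraries as labelled and 10 with the offsets.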
